A study of Mus musculus with 14 samples.

Results

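A set of 10 genes of energy metabolism were followed in the spinal cord of mice with experimental autoimmune encephalomyelitis (EAE), a mouse model of multiple sclerosis driven by immune cells that attack myelin. They were the hexokinases Hk1 and Hk2, the regulator Pfkfb3, the lactate dehydrogenase subunits Ldha and Ldhb, the monocarboxylate transporters Slc16a1, Slc16a3 and Slc16a7, the brain creatine kinase Ckb and the creatine synthesis enzyme Gatm. They were picked by symbol, and all 10 had a row among the 16703 genes of the table. Gonadectomized C57Bl/6 mice (ovariectomized females and castrated males, 9 to 10 weeks old when they entered acclimatization) were then immunized with a myelin peptide in complete Freund's adjuvant and, from the onset of disability, were given dihydrotestosterone (DHT), an androgen that cannot become an estrogen, or its vehicle. The drug was given through the nose for 8 days, with 0.04 mg each day. RNA of the whole cord was sequenced in 3 DHT-treated female, 4 vehicle female, 3 DHT-treated male and 4 vehicle male libraries, whereas the methods name 4 animals per group. All groups carried EAE and gonadectomy, so no healthy or intact animal served as a baseline. Female and male libraries came from separate datasets, and sex and dataset cannot be told apart.

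As background, glycolysis splits glucose into pyruvate in the cytosol, and hexokinases carry out its entry step by adding phosphate to glucose. Lactate dehydrogenase interconverts pyruvate and lactate, and monocarboxylate transporters move lactate across cell membranes, which in nervous tissue allows glia to supply axons and neurons with fuel. Activated immune cells rely strongly on glycolysis, with Hk2, Pfkfb3, Ldha and Slc16a3 as inducible members of the pathway. Creatine kinase buffers ATP by moving phosphate to and from creatine, which cells make through Gatm and Gamt or take up through Slc6a8.

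The values resolved into whole numbers of reads, whose totals were 32224727 to 35761972 in DHT-treated females, 29311155 to 31098108 in vehicle females, 31290267 to 31862751 in DHT-treated males and 30774957 to 30929550 in vehicle males. Libraries are named here by group and by the number of their column. A pair of libraries stood apart. Xist, the RNA of the inactive X chromosome, was at 7.41 log2 CPM in male DHT 3, against -3.39 to 0.14 in the other male libraries, and at 3.04 in female vehicle 3, against 6.80 to 9.22 in the other female libraries. The 14 libraries also lacked 1 direction of variation, in which male DHT 3 held 62.8% and female vehicle 3 held 23.6% of the squared weight, so the libraries were not fully independent of each other. Whether the Xist levels of these same libraries follow from the missing direction was not tested. Those levels are therefore not read as a sign of swapped or mixed samples. Counts of calls are therefore also given without both of these libraries, in a fit where 26.6% of all genes were called lower and 21.0% higher in females, and 3.44% lower and 3.11% higher in males. Nothing in the labels says how the libraries relate to animals, and p-values measure the spread between libraries only. Neuron markers summed to 2605 to 5035 CPM and oligodendrocyte markers to 15681 to 25020 CPM over the 14 libraries, as a check of the tissue label.

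The genes lie on 7 chromosomes of GRCm38 (GENCODE M21), each as a protein-coding gene. Hk1 spans chr10:62268855-62379908 on the minus strand and Hk2 chr6:82725025-82774454 (minus). Pfkfb3 lies at chr2:11471433-11554077 (minus), Ldha at chr7:46841475-46855627 (plus) and Ldhb at chr6:142490249-142507957 (minus). Slc16a1 lies at chr3:104638668-104658462 (plus), Slc16a3 at chr11:120948480-120960868 (plus) and Slc16a7 at chr10:125219270-125389465 (minus). Ckb lies at chr12:111669361-111672338 (minus) and Gatm at chr2:122594467-122611303 (minus). Exons of Hk1 overlap those of Hk1os, and exons of Slc16a7 overlap those of Gm47862, each on the opposite strand, and whether the counting used strand is not given in the sources used here. Transcripts of 4 other genes matched Ldha over at least 200 bases at 95% identity or more, and 1 other gene each matched Ldhb and Ckb. None of these copies had a row in the table, so reads shared with them make the levels of Ldha, Ldhb and Ckb less certain.

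The promoters of the 3 genes with the largest changes, Slc16a3, Hk2 and Ldha, and of Ckb, the single one of the 10 genes called for an interaction of sex and DHT, are shown to compare the letters before their start sites. Each line gives the 200 bases before a RefSeq start (GRCm38.p6), 5′ to 3′ on the strand of the gene, and capitals mark ACGTG and GCGTG on either strand, the core letters that hypoxia-inducible factors bind. Ldha has 2 starts in RefSeq and both are shown.
Slc16a3, chr11:120948867-120949066 (plus): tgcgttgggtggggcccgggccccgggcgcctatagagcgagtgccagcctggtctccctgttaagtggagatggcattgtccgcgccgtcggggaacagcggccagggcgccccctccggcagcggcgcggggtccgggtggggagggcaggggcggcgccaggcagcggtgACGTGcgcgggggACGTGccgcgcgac
Hk2, chr6:82774455-82774654 (minus): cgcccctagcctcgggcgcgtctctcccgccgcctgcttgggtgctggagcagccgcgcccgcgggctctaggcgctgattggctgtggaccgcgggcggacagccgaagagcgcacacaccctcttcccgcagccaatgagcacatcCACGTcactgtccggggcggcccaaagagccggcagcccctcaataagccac
Ldha, upstream start, chr7:46845604-46845803 (plus): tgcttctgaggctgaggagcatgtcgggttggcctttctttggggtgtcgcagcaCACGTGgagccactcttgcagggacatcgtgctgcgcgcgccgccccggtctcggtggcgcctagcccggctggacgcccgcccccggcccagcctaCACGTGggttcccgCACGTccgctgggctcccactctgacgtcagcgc
Ldha, downstream start, chr7:46846882-46847081 (plus): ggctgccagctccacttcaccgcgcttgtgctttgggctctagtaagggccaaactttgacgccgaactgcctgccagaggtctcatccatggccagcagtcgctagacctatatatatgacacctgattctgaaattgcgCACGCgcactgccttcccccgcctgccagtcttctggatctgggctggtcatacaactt
Ckb, chr12:111672339-111672538 (minus): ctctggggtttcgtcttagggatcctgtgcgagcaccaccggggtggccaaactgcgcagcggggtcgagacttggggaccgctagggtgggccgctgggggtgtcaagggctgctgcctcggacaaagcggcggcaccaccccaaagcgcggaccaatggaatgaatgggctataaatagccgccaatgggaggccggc

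ACGTG began at positions -27 and -14 from the start of Slc16a3 and at position -52 from that of Hk2. It gave 5 matches before the upstream start of Ldha, 4 of them from both strands of a pair of CACGTG stretches, whereas the downstream start held 1 GCGTG. The 50 bases after the upstream start were found as 1 stretch in no GENCODE M21 transcript of Ldha, whereas those after the downstream start were. The window of Ckb held neither. A promoter was found for 9 of the 10 genes, with 12 starts in all, and 10 of these 12 windows held ACGTG or GCGTG, against 34.1% of 32851 promoter windows of the same length, which were not matched on base composition. AGAACA, the half-site letters of steroid receptors, stood in 1 of the 12 windows, the upstream start of Hk1, against 12.9% of all windows. These matches are letters in a window, and no binding was measured.

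Levels between genes were compared as log2 CPM per kb of exon. In vehicle females the order was Ckb (7.99), Ldhb (7.67), Gatm (6.50), Ldha (6.35), Slc16a1 (5.31), Hk1 (4.99), Pfkfb3 (4.21), Hk2 (3.75), Slc16a3 (2.87) and Slc16a7 (0.48), and these values are means of 4 libraries with an SD of 0.046 to 0.43 log2 CPM per kb. In vehicle males Ckb was again at the top with 8.63, followed by Ldhb (7.86), Ldha (6.19) and Gatm (6.0), with Slc16a7 at the bottom with 0.10. In DHT-treated females Slc16a3 stood lowest with -0.16 log2 CPM per kb (SD 2.16), below Slc16a7 with 0.86 (SD 0.21), although the spread of Slc16a3 covers that gap. The neighbours Gatm and Ldha overlapped in vehicle females (6.43 to 6.68 and 5.94 to 6.59 log2 CPM per kb), as did Slc16a1 and Hk1 (4.71 to 5.70 and 4.93 to 5.04).

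In DHT-treated females, 5 of the 10 genes fell (Hk2, Pfkfb3, Ldha, Slc16a1 and Slc16a3) and 2 rose (Ldhb and Ckb), at an adjusted p under 0.05 (limma over all genes with Benjamini-Hochberg adjustment). Over all genes 27.3% were called lower and 19.8% higher, so the counts of 5 and 2 of 10 are not read as particular to these genes. In males Ckb alone fell and Gatm alone rose, where 10.7% of all genes were called lower and 12.1% higher. Hk1 and Slc16a7 passed the test in neither sex. The median log2 fold change of the 10 genes was -0.18 in females and -0.088 in males, against -0.019 and -0.0043 over all genes. In females, 4 genes had all DHT libraries below all vehicle libraries (21.4% of all genes did) and 1 had them above (19.0% of all genes). In males 1 gene had them below (20.4% of all genes) and 3 had them above (18.5% of all genes). Without female vehicle 3 and male DHT 3, 9 genes passed in females, with Slc16a7 and Gatm added, and the same 2 genes passed in males. With the leading component of 20 housekeeping genes as a covariate, none of the 10 genes passed in females (0 at an unadjusted p under 0.05), nor did any of the 16703 genes (406 at an unadjusted p under 0.05). That component was -0.59, -0.53 and -0.14 in the DHT-treated females, against 0.18, 0.13, -0.10 and 0.22 in the vehicle females.

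**Figure D1:**
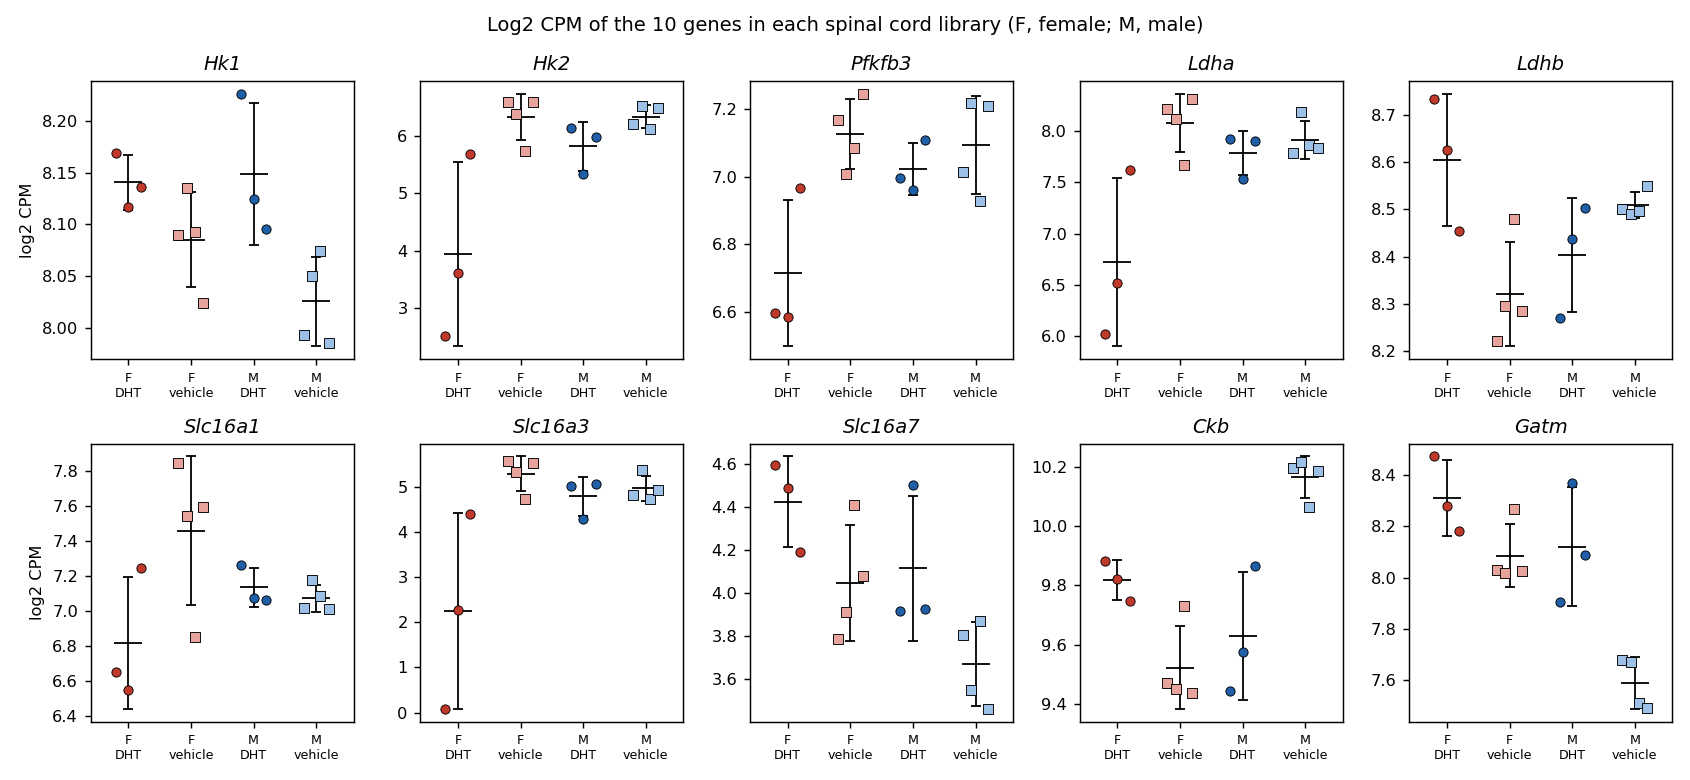
Log2 CPM (y axis) of the 10 genes in each library, by group (x axis), with the mean and SD of each group as black bars and every library as a point. Slc16a3 spreads from 0.08 to 4.40 log2 CPM in the DHT-treated females, and Ckb lies at 10.06 to 10.22 in the vehicle males and at 9.44 to 9.88 in the other groups.

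Of the hexokinases, Hk1 is the common form of nervous tissue and Hk2 an inducible form. Hk2 was at 2.52, 3.61 and 5.68 log2 CPM in female DHT 1 to 3, against 6.60, 6.38, 5.74 and 6.60 in female vehicle 1 to 4. All DHT-treated females were below all vehicle females, but female DHT 3 was only just below female vehicle 3. The log2 fold change was -2.39 (standard error 0.54, adjusted p = 0.0055), a level 5.26-fold lower, which was 3.22-fold lower without female DHT 1 and 9.62-fold lower without female DHT 3. In males Hk2 was at 6.14, 5.34 and 5.99 in DHT 2 to 4 and at 6.20, 6.52, 6.13 and 6.49 in vehicle 1 to 4, so the groups overlapped, with a log2 fold change of -0.52 (standard error 0.54, adjusted p = 0.513). The difference between the DHT effects in females and males was -1.88 (standard error 0.76, adjusted p = 0.14). Hk1 was narrow, at 8.17, 8.12 and 8.14 log2 CPM in DHT-treated females and 8.09, 8.14, 8.09 and 8.02 in vehicle females (log2 fold change 0.055, adjusted p = 0.378). Hk1 in males was 8.23, 8.12 and 8.10 under DHT, above 7.99, 8.05, 8.07 and 7.98 under vehicle, with a log2 fold change of 0.12 that missed the threshold (adjusted p = 0.0914). Among the alternatives, Hk1 passed in females after centring on housekeeping genes (0.16, adjusted p = 0.0212) and in males with array weights (0.12, adjusted p = 0.0482).

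Pfkfb3 makes fructose 2,6-bisphosphate, the activator of the committed step of glycolysis. It was at 6.60, 6.58 and 6.97 log2 CPM in DHT-treated females, below the 7.17, 7.01, 7.09 and 7.24 of vehicle females, and fell by 0.41 (log2, standard error 0.10, adjusted p = 0.00777). Female DHT 3 lay nearest to the vehicle libraries here too. In males Pfkfb3 was at 7.0, 6.96 and 7.11 under DHT and at 7.01, 7.22, 6.93 and 7.21 under vehicle (log2 fold change -0.071, adjusted p = 0.649). The interaction was -0.34 (adjusted p = 0.157).

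The subunits of lactate dehydrogenase moved in opposite directions in females. Ldha, whose product favours the making of lactate, was at 6.01, 6.52 and 7.62 log2 CPM in DHT-treated females, against 8.22, 8.12, 7.67 and 8.32 in vehicle females. The groups did not overlap, although female DHT 3 and female vehicle 3 were close, and Ldha had a log2 fold change of -1.36 (standard error 0.29, adjusted p = 0.00505), a level 2.57-fold lower. Ldhb, whose product favours the use of lactate, was at 8.73, 8.63 and 8.45 log2 CPM in DHT-treated females and at 8.22, 8.30, 8.48 and 8.29 in vehicle females. It rose by 0.28 (standard error 0.081, adjusted p = 0.0135), with female DHT 3 just inside the vehicle range. The rise of Ldhb did not pass without female DHT 1 (adjusted p = 0.0809) or female DHT 2 (0.053), or in a fit of the females alone (0.0561). In males Ldha was at 7.92, 7.53 and 7.91 under DHT and 7.79, 8.19, 7.86 and 7.83 under vehicle, and Ldhb at 8.27, 8.44 and 8.50 under DHT and 8.50, 8.49, 8.50 and 8.55 under vehicle. Neither passed in males (adjusted p = 0.777 for Ldha and 0.364 for Ldhb). The interactions were -1.23 for Ldha (adjusted p = 0.0982) and 0.39 for Ldhb (adjusted p = 0.0743), so a difference of the DHT effect between the sexes was not called for either.

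Slc16a3 (MCT4) exports lactate from glycolytic cells and showed the largest change of the 10 genes. It was at 0.08, 2.27 and 4.40 log2 CPM in DHT-treated females, which are 35, 170 and 676 reads, against 5.56, 5.33, 4.73 and 5.53 in vehicle females, with 818 to 1437 reads. The groups did not overlap, and the DHT-treated females were further from each other than any 2 libraries of the other groups. The log2 fold change was -3.04 (standard error 0.70, adjusted p = 0.00583), a level 8.20-fold lower, which was 3.87-fold lower without female DHT 1 and 17.3-fold lower without female DHT 3. In males Slc16a3 was at 5.01, 4.28 and 5.06 under DHT and 4.82, 5.36, 4.73 and 4.93 under vehicle, which overlapped (log2 fold change -0.18, standard error 0.70, adjusted p = 0.878). The interaction of -2.86 had a standard error of 0.99 and an adjusted p of 0.104. Without female DHT 3, whose values lay nearest to vehicle, the interactions of Hk2, Pfkfb3, Ldha, Ldhb, Slc16a1 and Slc16a3 all passed, with adjusted p of 0.00183 for Hk2, 0.0168 for Pfkfb3, 0.00187 for Ldha, 0.0105 for Ldhb, 0.023 for Slc16a1 and 0.00191 for Slc16a3. In that fit 25.4% of all genes were called for the interaction, against 1.86% with all libraries. Without female DHT 1 or female DHT 2, by contrast, 0 of the 10 genes and 0 of all genes were called (limma). At an unadjusted p under 0.05 were 5 and 4 of the 10 genes, and 3062 and 3417 of all 16703 genes.

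Slc16a1 (MCT1) carries lactate in oligodendrocytes, endothelium and other cells. It was at 6.65, 6.55 and 7.25 log2 CPM in DHT-treated females and at 7.85, 7.54, 6.85 and 7.59 in vehicle females, so the groups overlapped through female DHT 3 and female vehicle 3. It fell by 0.64 (standard error 0.20, adjusted p = 0.0219), a call that was lost without female DHT 1 (0.0889), female DHT 2 (0.107), female vehicle 1 (0.0607) or female vehicle 4 (0.0547), or in a fit of the females alone (0.0936), each an adjusted p. Male libraries had 7.26, 7.08 and 7.07 under DHT and 7.02, 7.18, 7.08 and 7.01 under vehicle (log2 fold change 0.064, adjusted p = 0.849). Slc16a7 (MCT2), the transporter of neurons, was at 4.60, 4.49 and 4.19 in DHT-treated females and 3.79, 3.91, 4.41 and 4.08 in vehicle females (log2 fold change 0.38, adjusted p = 0.102). In males it was at 3.92, 4.51 and 3.93 under DHT, all above 3.80, 3.55, 3.87 and 3.46 under vehicle (log2 fold change 0.45, adjusted p = 0.0925). In females Slc16a7 passed without female vehicle 3 (log2 fold change 0.50, adjusted p = 0.0344), just passed without female DHT 3 (0.50), and passed with quantile normalization (0.54, adjusted p = 0.0343), after centring on housekeeping genes (0.49, adjusted p = 0.0436) and with array weights (0.55, adjusted p = 0.0452). It passed in males with array weights (0.49, adjusted p = 0.0344).

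**Figure D2:**
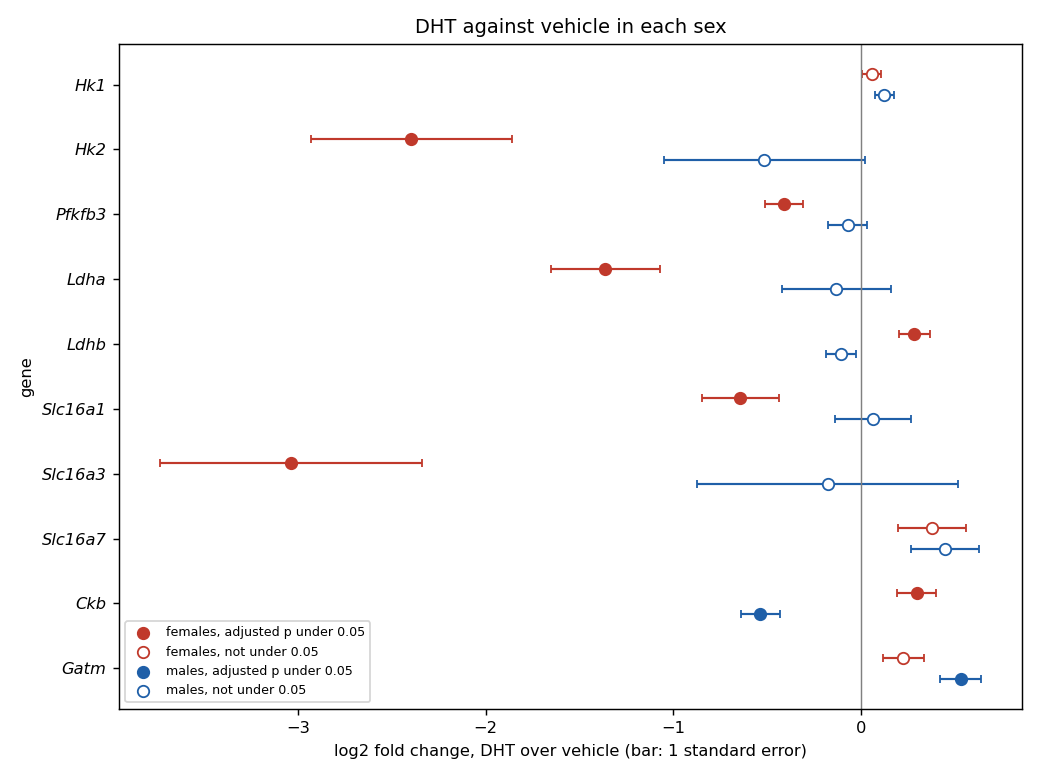
Log2 fold change of DHT over vehicle (x axis, with 1 standard error) for each of the 10 genes (y axis), in females (red) and males (blue), filled where the adjusted p was under 0.05. In females Slc16a3 (-3.04), Hk2 (-2.39) and Ldha (-1.36) stand furthest from 0, and Ckb has opposite signs, 0.30 in females and -0.54 in males.

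Creatine genes were the only ones of the 10 to pass in males. Ckb, the cytosolic creatine kinase of brain, was at 9.88, 9.82 and 9.75 log2 CPM in DHT-treated females, just above the 9.47, 9.45, 9.73 and 9.44 of vehicle females (log2 fold change 0.30, standard error 0.10, adjusted p = 0.0318). In males it was at 9.44, 9.58 and 9.87 under DHT, below the 10.19, 10.22, 10.06 and 10.19 under vehicle, and fell by 0.54 (standard error 0.10, adjusted p = 0.00673). The groups did not overlap in either sex. The interaction of 0.83 (standard error 0.15, adjusted p = 0.0296) was the single one called among the 10 genes, where 1.86% of all genes were called. This call was lost in 9 of the 14 fits that left out 1 library, with adjusted p of 0.0525 to 0.0938 and an interaction of 0.74 to 0.83. These libraries were female DHT 1 and 2, female vehicle 1 and 2, male DHT 2 and 3, and male vehicle 1, 2 and 4. It was also lost without both female vehicle 3 and male DHT 3 (interaction 0.88, adjusted p = 0.0541) and with quantile normalization (0.47, adjusted p = 0.0794). The rise in females was lost with quantile normalization (0.13, adjusted p = 0.31) and in a fit of the females alone (0.0551), as well as without female DHT 1 (adjusted p = 0.118) or 2 (0.0885) and without female vehicle 1 (0.0706), 2 (0.0675) or 4 (0.0735). The fall in males passed in every alternative run, with adjusted p of 0.000953 to 0.0335.

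Gatm makes guanidinoacetate, the precursor of creatine. It was at 7.91, 8.37 and 8.09 log2 CPM in DHT-treated males, all above the 7.68, 7.67, 7.51 and 7.49 of vehicle males, and rose by 0.53 (standard error 0.11, adjusted p = 0.00834). It passed in every alternative run, and without male DHT 3 the change was 0.41 (adjusted p = 0.0402). In females it was at 8.47, 8.28 and 8.18 under DHT and 8.03, 8.02, 8.27 and 8.03 under vehicle, with a small overlap (log2 fold change 0.23, adjusted p = 0.107), and it passed there once female vehicle 3 and male DHT 3 were both left out (0.29, adjusted p = 0.0214) or libraries were centred on housekeeping genes (0.33, adjusted p = 0.0282). The interaction was -0.31 (standard error 0.15, adjusted p = 0.213), so the effects in the sexes were not shown to differ.

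The level of these 2 creatine genes also set the vehicle groups apart. Ckb was lower in vehicle females than in vehicle males, by a log2 difference of -0.64 (adjusted p = 0.00439), at 9.44 to 9.73 against 10.06 to 10.22 log2 CPM, and Gatm was 0.50 higher (adjusted p = 0.012), at 8.02 to 8.27 against 7.49 to 7.68. Among all genes 7.15% were called higher and 5.53% lower in vehicle females than in vehicle males. None of the other 8 genes passed, among them Ldhb with a log2 difference of -0.19 (adjusted p = 0.113) and Slc16a1 with 0.39 (adjusted p = 0.19). This comparison and the DHT effects share the vehicle libraries. DHT-treated males and vehicle females had Ckb ranges that overlapped (9.44 to 9.87 and 9.44 to 9.73).

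A single factor that scales a whole library cancels in a ratio of 2 genes within it. The authors' normalization on housekeeping genes, or quantile normalization, need not cancel in such a ratio. In each sex, 5 ratios were compared by an exact permutation test (two-sided, 35 splits, smallest possible p = 0.0286, 10 tests adjusted together). The log2 ratio of Ldha to Ldhb was -2.72, -2.11 and -0.83 in DHT-treated females, below -0.01, -0.17, -0.81 and 0.03 in vehicle females, a difference of -1.65 (exact p = 0.0286, adjusted p = 0.0571). Male libraries had -0.35, -0.90 and -0.60 under DHT and -0.71, -0.30, -0.63 and -0.72 under vehicle (difference -0.026, exact p = 0.914). Hk2 to Hk1 was -5.65, -4.51 and -2.46 in DHT-treated females and -1.49, -1.75, -2.35 and -1.43 in vehicle females (difference -2.45, exact p = 0.0286, adjusted p = 0.0571). It was also lower in all DHT-treated males, at -2.09, -2.79 and -2.11, than in vehicle males, at -1.79, -1.53, -1.95 and -1.49 (difference -0.64, exact p = 0.0286, adjusted p = 0.0571).

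The log2 ratio of Slc16a3 to Slc16a1 was -6.57, -4.28 and -2.85 in DHT-treated females, below the narrow -2.29, -2.22, -2.13 and -2.07 of vehicle females (difference -2.39, exact p = 0.0286, adjusted p = 0.0571), and differed by -0.24 in males (exact p = 0.4). Slc16a7 to Slc16a1 differed by 1.02 in females (exact p = 0.114) and 0.38 in males (exact p = 0.2), with overlap in both. Ckb to Gatm was 1.54, 1.21 and 1.78 in DHT-treated males, far below 2.51, 2.55, 2.55 and 2.69 in vehicle males (difference -1.07, exact p = 0.0286, adjusted p = 0.0571). In females it was 1.41, 1.54 and 1.57 under DHT and 1.44, 1.43, 1.46 and 1.41 under vehicle (difference 0.071, exact p = 0.2). No ratio passed 0.05 after adjustment over the 10 tests, and with 35 splits the smallest p could pass only if more of them had reached it.

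**Figure D3:**
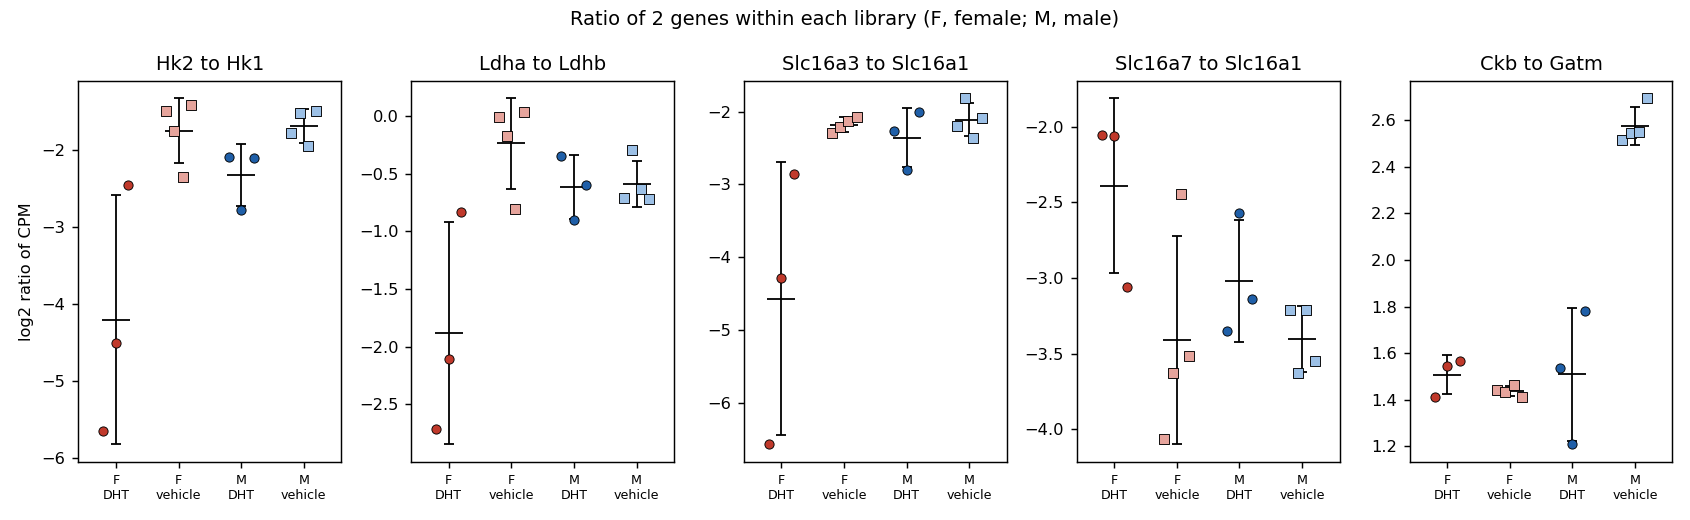
Log2 ratio of CPM (y axis) for 5 pairs of genes in each library, by group (x axis), with the mean and SD as black bars. Ckb to Gatm lies at 2.51 to 2.69 in the vehicle males and at 1.21 to 1.78 in the other 3 groups.

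Genes around these 10 were described by pathway, with the 10 counted in the lists they belong to and without a test of a list. The shares over all genes were 27.3% lower and 19.8% higher in females, and 10.7% lower and 12.1% higher in males, against which each count from all libraries is to be read. Counts without female vehicle 3 and male DHT 3 are to be read against 26.6% lower and 21.0% higher in females, and 3.44% lower and 3.11% higher in males. Of 16 glycolytic enzymes, 11 fell and 2 rose in DHT-treated females, with a median log2 fold change of -0.24. Eno1, the common enolase, was at 8.47 to 8.86 log2 CPM in DHT-treated females and 9.01 to 9.28 in vehicle females (log2 fold change -0.49, adjusted p = 0.00478), whereas Eno2, the enolase of neurons, was at 9.32 to 9.64 and 8.79 to 9.18 (0.50, adjusted p = 0.00478). Pfkl, the liver form of phosphofructokinase, fell by 0.72 (adjusted p = 0.00478) and Gapdh by 0.39 (adjusted p = 0.00497). In males 3 of the 16 fell (Pfkl by 0.52, Gpi1 by 0.24 and Pgam1 by 0.26) and none rose, with 13 that did not pass and a median of -0.16. Without female vehicle 3 and male DHT 3, 9 fell and 2 rose in females and 0 passed in males. Each of the 3 male calls was also lost in 4 to 6 of the 14 fits that left out 1 library. In females the fall of Pkm was lost in 6 of these fits, that of Aldoa in 4, that of Pgam1 in 3 and those of Tpi1 and Pgk1 in 1 each. The rise of Pfkm was lost in 2, and the other female calls of this list held in all 14. Processed copies of these enzymes were not searched for.

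Of 8 glucose carriers, 2 fell and 1 rose in females. Slc2a1 (GLUT1), the carrier of endothelium and glia, was at 6.88 to 7.53 log2 CPM in DHT-treated females and 7.52 to 7.87 in vehicle females (log2 fold change -0.54, adjusted p = 0.0139), Slc2a6 fell by 0.69 (adjusted p = 0.0069), and Slc2a3 (GLUT3), the carrier of neurons, rose by 0.25 (adjusted p = 0.0256). In males 2 others fell. Slc2a8 was at 3.61 to 3.80 log2 CPM in DHT-treated males and 4.16 to 4.35 in vehicle males (-0.60, adjusted p = 0.00342), and Slc2a4 (GLUT4), the insulin-responsive carrier, was at 1.40 to 2.54 and 3.59 to 4.50 (-1.85, adjusted p = 0.00562). Slc2a8 was also called for the interaction (0.70, adjusted p = 0.0296), but not in 12 of 25 alternatives, 9 of them fits without 1 library (adjusted p of 0.0514 to 0.0938 where lost). With female vehicle 3 and male DHT 3 left out, 2 carriers fell in females and 2 in males and none rose, so that the rise of Slc2a3 was lost (adjusted p = 0.0635). It was lost as well without female DHT 1, female DHT 2, female vehicle 3 or female vehicle 4, and the fall of Slc2a1 without female DHT 1. Of the 5 measured regulators of fructose 2,6-bisphosphate, Pfkfb4 fell in both sexes, by 0.57 in females (adjusted p = 0.00505) and 0.47 in males (adjusted p = 0.019), and Tigar, which lowers the activator, rose in both, by 0.37 (adjusted p = 0.00478) and 0.29 (adjusted p = 0.0163). Without female vehicle 3 and male DHT 3, 2 fell and 2 rose in females and 0 of the 5 passed in males, where both calls were also lost without male DHT 3 or male vehicle 4 alone.

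Of the 13 genes of pyruvate entry to mitochondria, 7 rose in DHT-treated females and 1 fell, whereas 6 rose in DHT-treated males and none fell, with medians of 0.21 in both. Subunits of pyruvate dehydrogenase rose in both sexes. Dlat was at 6.71 to 6.91 log2 CPM in DHT-treated females and 6.30 to 6.56 in vehicle females (log2 fold change 0.36, adjusted p = 0.0055), and at 6.55 to 6.64 in DHT-treated males and 6.15 to 6.42 in vehicle males (0.34, adjusted p = 0.0129). Pdha1 rose by 0.21 in females (adjusted p = 0.0125) and 0.28 in males (adjusted p = 0.00954), and Pdhx by 0.34 in females (adjusted p = 0.00478). Dld rose by 0.26 in females (adjusted p = 0.0148) and by 0.41 in males (adjusted p = 0.0057), where it passed in all 26 alternatives. The kinase Pdk3, which switches the complex off, rose by 0.29 in males (adjusted p = 0.0157). Without female vehicle 3 and male DHT 3, 8 rose in females and 2 in males, with Dlat (adjusted p = 0.0605) and Pdk3 (adjusted p = 0.0783) lost in males. The rises of Pdha1 and Dld in females were lost without female DHT 1 or 2.

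Among the other genes of the lactate shuttle, the transporter partner Emb passed in females and Bsg in males, with no interaction called for either (adjusted p = 0.232 and 0.277). Emb fell by 0.71 in females (adjusted p = 0.0155), at 5.60 to 6.14 log2 CPM under DHT and 6.11 to 7.10 under vehicle, and Bsg, the usual partner of MCT1 and MCT4, fell by 0.41 in males (adjusted p = 0.0174), at 8.32 to 8.50 under DHT and 8.69 to 8.91 under vehicle. With the 10 genes included, 4 of 8 fell and 1 rose in females, and 1 fell in males. These counts were 4 and 2 in females and 1 in males without female vehicle 3 and male DHT 3. The fall of Emb was lost without female DHT 1 or 2, and that of Bsg without male DHT 2 or male vehicle 4. Of the 6 measured creatine genes, Ckmt1, the mitochondrial kinase of brain, rose by 0.63 in females (adjusted p = 0.00478), at 7.52 to 7.89 under DHT and 6.85 to 7.33 under vehicle. In males it was at 7.23 to 7.48 and 6.93 to 7.19 (0.29, adjusted p = 0.0997). Slc6a8, the creatine transporter, had log2 fold changes of -0.15 in females (adjusted p = 0.208) and -0.057 in males (adjusted p = 0.703). Ckm, the kinase of muscle, had 1.56 in males without passing (adjusted p = 0.232), and the summed skeletal muscle markers, of which Ckm is 1, were 56.3, 4.09 and 15.5 CPM in male DHT 2 to 4, against 4.39 to 6.95 CPM in vehicle males. Creatine genes called numbered 2 higher in females, and 1 higher and 1 lower in males. They numbered 3 higher and 1 lower in females and 2 higher and 1 lower in males without female vehicle 3 and male DHT 3, where Slc6a8 in females (-0.23, adjusted p = 0.0353) and Ckm in males (2.96, adjusted p = 0.0354) also passed.

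All 7 pentose phosphate enzymes had a negative log2 fold change in females, and 6 of them fell. The fall of Rpia was lost in 11 of the 14 fits that left out 1 library and that of Tkt in 2, while the other falls held in all 14. Pgd was at 5.33 to 6.57 log2 CPM in DHT-treated females and 6.73 to 7.31 in vehicle females (log2 fold change -1.20, adjusted p = 0.00484), and G6pdx, the entry enzyme, fell by 0.62 (adjusted p = 0.00888). In males 1 of 7 fell, Pgls, by 0.84 (adjusted p = 0.00825), and it fell by 0.83 in females (adjusted p = 0.00478). Of 9 glycogen genes, 4 rose and 3 fell in females. Pygl, the liver form of the phosphorylase, was at 2.85 to 4.84 log2 CPM in DHT-treated females and 5.16 to 6.33 in vehicle females (-1.98, adjusted p = 0.00478), and the synthase Gys1 fell by 0.54 (adjusted p = 0.00478), whereas Pygm, the form of muscle and astrocytes, rose by 0.47 (adjusted p = 0.0055). In males 1 of the 9 rose, the branching enzyme Gbe1, by 0.31 (adjusted p = 0.0251). Pentose phosphate calls without female vehicle 3 and male DHT 3 were 5 lower in females and 1 lower in males, and glycogen calls were 4 higher and 3 lower in females and 0 in males, where Gbe1 was lost (adjusted p = 0.0906).

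The hypoxia response was followed in 12 genes, of which 5 fell in females and none rose, and Bnip3 alone rose in males, by 0.24 (adjusted p = 0.0289). Hif1a, the inducible factor itself, was at 7.01, 7.13 and 8.11 log2 CPM in DHT-treated females and 8.64, 8.55, 8.0 and 8.60 in vehicle females (log2 fold change -1.03, adjusted p = 0.0055). In males it was at 8.21, 8.11 and 8.06 under DHT, above 7.51, 7.87, 7.59 and 7.50 under vehicle, but with a change of 0.51 that did not pass (adjusted p = 0.124). The interaction of -1.54 was called (adjusted p = 0.0406), but not in 15 of 25 alternatives, 11 of them fits without 1 library (adjusted p of 0.0541 to 0.118 where lost). It held among these fits only without female DHT 3, female vehicle 3 or male DHT 4. Arnt, the partner of Hif1a, fell by 0.22 in females (adjusted p = 0.013) and P4ha1, a collagen hydroxylase, by 0.59 (adjusted p = 0.00478), whereas Vegfa had -0.17 in females (adjusted p = 0.423) and 0.45 in males (adjusted p = 0.0721). The fall of Arnt was lost without female DHT 1 or 2. Without female vehicle 3 and male DHT 3, 5 fell in females and Ndrg1 rose (0.59, adjusted p = 0.0259), and none passed in males, where Bnip3 was lost (adjusted p = 0.108).

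**Figure D4:**
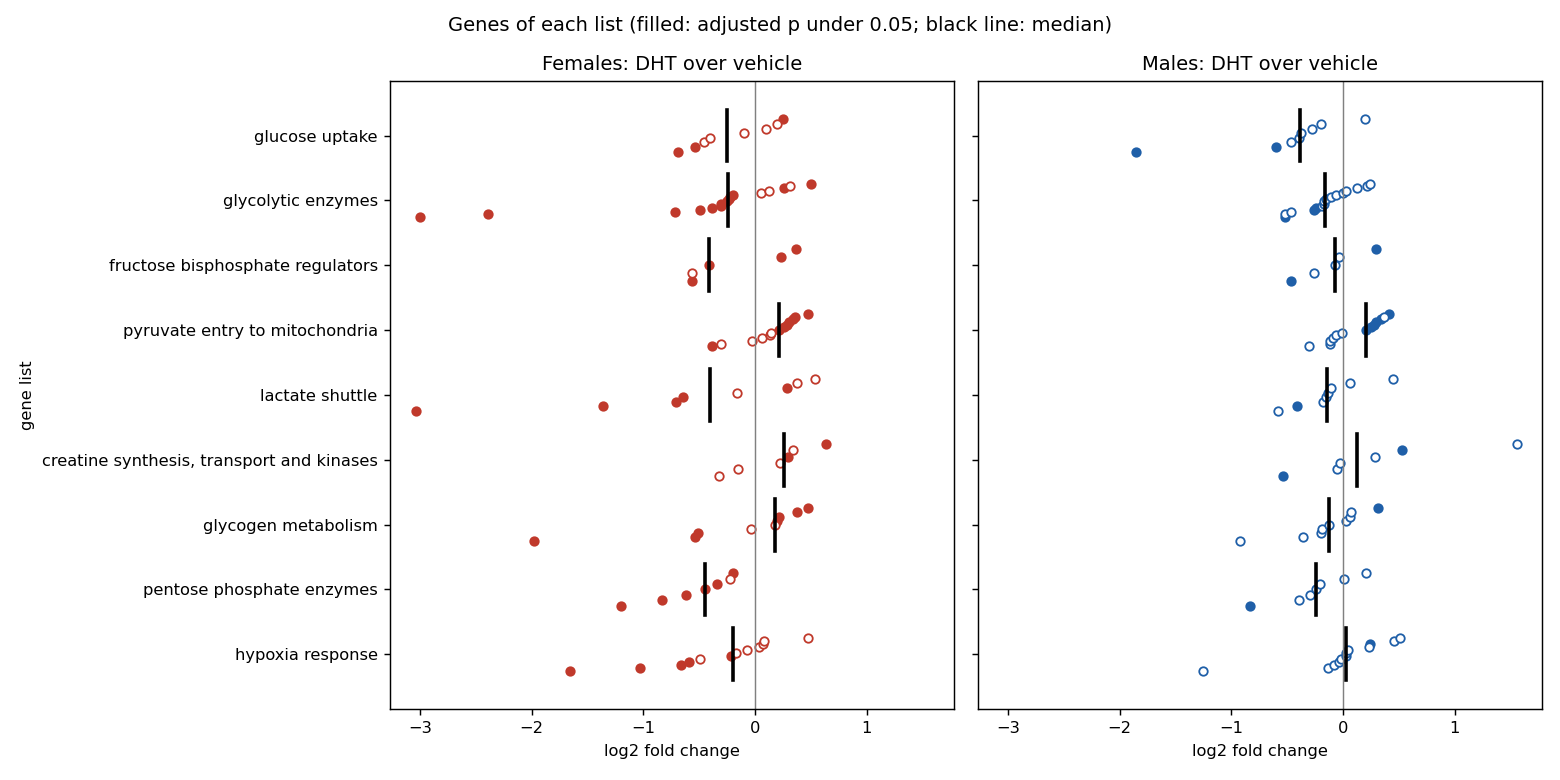
Log2 fold change of DHT over vehicle (x axis) for each gene of 9 lists (y axis), in females (left, red) and males (right, blue), filled where the adjusted p was under 0.05, with the median of each list as a black line. In females the medians are -0.24 for glycolytic enzymes and -0.45 for pentose phosphate enzymes, against 0.21 for pyruvate entry to mitochondria.

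Markers of immune cells fell in DHT-treated females, where several of the 10 genes also fell. The 10 monocyte and macrophage markers (Adgre1, Cd68, Itgam, Ccr2, Lyz2, Fcgr1, Ms4a7, Cd14, Csf1r and Aif1), all measured, summed to 123, 293 and 1115 CPM in female DHT 1 to 3, against 1717, 1207, 2664 and 4638 CPM in female vehicle 1 to 4, and all 10 fell. In males they summed to 1712, 1252 and 1032 CPM under DHT and 4418, 4624, 4067 and 5750 CPM under vehicle, where 2 of 10 fell. The order of the DHT-treated females in this sum is that of Hk2, Ldha and Slc16a3. The vehicle females did not follow the order of the monocyte and macrophage sum. Female vehicle 3 had a higher sum than female vehicle 1 and 2, but the lowest Hk2 (5.74), Ldha (7.67) and Slc16a3 (4.73 log2 CPM) of the vehicle females. In males, where the sum of all DHT libraries also lay below that of all vehicle libraries, these 3 genes overlapped between the groups. T cell markers (8 of 10 measured, Trac and Trbc2 not analysed here) summed to 1.65 to 33.1 CPM in DHT-treated females. They summed to 69.6, 58.0, 51.4 and 101 CPM in female vehicle 1 to 4. Here female vehicle 3 was lowest, as it was for Hk2, Ldha and Slc16a3. In males the T cell sums were 30.5 to 75.0 CPM under DHT and 66.3 to 118 CPM under vehicle. All 8 markers fell in females and 0 in males. Neutrophil markers, 9 of 9 measured, summed to 15.3 to 161 CPM in DHT-treated females and 257 to 436 CPM in vehicle females. Female vehicle 3 was the highest of these vehicle females. In males the neutrophil sums were 222 to 306 CPM under DHT and 318 to 648 CPM under vehicle. Of these 9 markers, 6 fell in females and 0 in males. Homeostatic microglia markers (7 of 7) summed to 228 to 570 CPM in DHT-treated females and 548 to 795 CPM in vehicle females, which overlapped. In males they summed to 430 to 656 CPM under DHT, all below the 787 to 1006 CPM under vehicle. Of these 7, 6 fell in females and 2 in males. Over all genes, 27.3% were called lower in females and 10.7% in males. In whole cord, fewer cells of a type and less RNA per cell cannot be told apart, and the part of these cells in the results was not tested.

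Neuron markers, all 9 measured, summed to 3841 to 5035 CPM in DHT-treated females and 2803 to 3676 CPM in vehicle females, with 8 of 9 risen, and to 3744 to 3859 and 2605 to 3060 CPM in males, with 3 of 9 risen. Oligodendrocyte markers (8 of 8 measured) summed to 20974 to 25020 and 15681 to 19313 CPM in females and to 16985 to 23027 and 17200 to 19942 CPM in males. Of these 8, 3 rose in females and 1 in males, and 0 fell. Astrocyte markers (9 of 9) summed to 7476 to 10065 and 7655 to 10565 CPM in females, which overlapped, and to 8847 to 9872 CPM in DHT-treated males, all below the 9936 to 11818 CPM of vehicle males. Ckb, which fell in males, had the same order of groups as the astrocyte sum in males but not in females. Whether these sums take part in the changes of Ckb, Gatm, Ldhb or Slc16a7 was not tested.

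**Figure D5:**
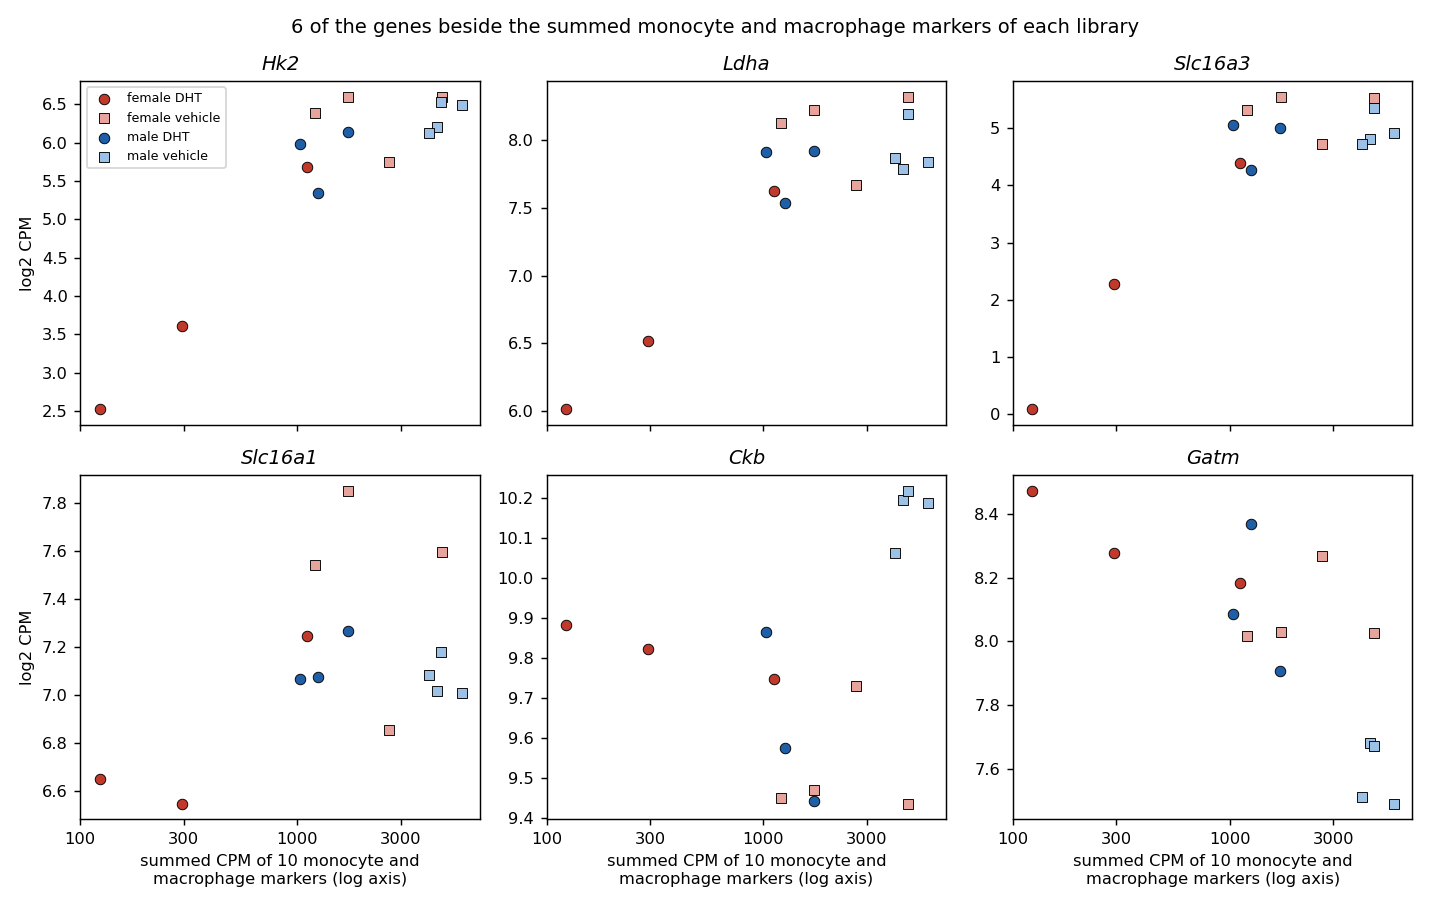
Log2 CPM (y axis) of 6 of the genes against the summed CPM of 10 monocyte and macrophage markers (x axis, log scale), 1 point per library. Female DHT 1 and 2 lie at the lower left for Hk2, Ldha and Slc16a3, with sums of 123 and 293 CPM, while the other 12 libraries have sums of 1032 CPM or more.

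The genes most like each of the 10 over the 14 libraries, by Pearson r of log2 CPM among 12993 genes with a mean of at least 2 log2 CPM, are given as a description. Hk2 ran closest to Psd4, Ptpn1 and Themis2 (r = 0.997 to 0.998), Slc16a3 to Gpr35, Tmem173 and Slc28a2 (0.994 to 0.996) and Ldha to Tagln2, Arg2 and Tuba1c (0.99 to 0.992). Pfkfb3 was most like Rasgrp1, Sh3pxd2b and Clec2d (0.958 to 0.959) and Slc16a1 most like Mdm2, Cyp7b1 and Nt5e (0.942 to 0.948). Ldhb was most like Cldn10, Hip1r and Cryab (0.955 to 0.974), Slc16a7 like Txndc16, Zkscan8 and Nlk (0.97 to 0.972), Hk1 like Akap12, Pcbp3 and Gdap2 (0.92 to 0.977), Ckb like Btbd2, Plxnb1 and Gpc1 (0.955 to 0.975) and Gatm like Hnrnpr, Cnot7 and Fip1l1 (0.973 to 0.976). The 14 points share the groups and the normalization, and for Hk2, Ldha and Slc16a3 they rest largely on female DHT 1 and 2.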

How the data were processed

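The authors sequenced RNA of whole spinal cord in 14 libraries made with a directional kit and, by their methods and the submitters' processing notes, used FastQC and fastp on the reads and DRAGEN, with mm10 and GENCODE, for mapping and quantification. The authors joined both datasets with RUVSeq on housekeeping genes, normalized with edgeR and dropped weakly expressed genes. The deposited unit is log2 CPM with a small prior, for 16703 genes. The deposited columns of fold changes and p-values of the authors' own comparisons were not used. Columns name a group and a number only, and these numbers name libraries here. Whole reads were recovered in 100% of low values within a tolerance of 0.05. These reads follow the authors' normalization, so their totals describe the table and not the sequencer. The normalization removed variation that housekeeping genes share, which can also shift the genes described here.

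A linear model of the 4 groups, which share the spread, was fitted to the deposited log2 CPM without another pseudocount or filter (limma 3.58.1, R 4.3.3, with a variance trend), and p-values were adjusted by Benjamini-Hochberg over all genes, with a call at an adjusted p under 0.05. The test on log2 values replaces the authors' count model, since the table holds normalized values. Contrasts were DHT against vehicle within each sex, the difference of these effects (interaction), and vehicle females against vehicle males. Log2 fold changes are given with standard errors of the fit. The fit was also run on simulated data with known changes. The simulated noise was independent between libraries, unlike the deposited values, so that run does not vouch for the results. Ratios were compared by exact permutation tests. The genes, the lists of pathways and markers and the tests were chosen with earlier results of these data known. Genes named are the 10 genes, in each pathway list genes among the 4 with the smallest p in each sex (not all of them), the 3 most alike genes of each of the 10, and markers. Genes outside this rule, such as Ndrg1 and Pkm, were named after their values were seen. Promoters are from RefSeq (GRCm38.p6), coordinates from GENCODE M21, and copies were searched with megablast. Alternatives covered scaling, covariates, a filter at a mean of 1 log2 CPM, pseudocounts of 0.5 and 1, each sex alone, array weights, no trend, voom on the recovered reads, and libraries left out. Leaving out female vehicle 3 and male DHT 3 for the pathway lists, and running the other alternatives on the genes called in them, was chosen after seeing the data. Other steps used pandas 2.3.3 and numpy 2.4.6 under Python 3.11.15, with matplotlib 3.10.9 for figures. Voom on the recovered reads called 7917 genes in females and 3965 in males.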

Additional observations from a re-analysis of the deposited data

Results flagged for a closer look

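Ckb had a log2 interaction of sex and DHT of 0.83 (limma, adjusted p = 0.0296), with all 3 DHT-treated females above all vehicle females and all 3 DHT-treated males below all vehicle males. The call was lost in 13 of 25 alternatives, 9 of them fits without 1 library, with adjusted p up to 0.0938, and the call in females was lost in 8 of 26 alternatives. Sex and dataset cannot be told apart in it.

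In 3 of 20 vehicle groups of 4 libraries examined (10 genes in each sex), the lowest or highest library lay far from the other 3, where chance gives about 1 in 20. Ckb in vehicle females was at 9.73 log2 CPM in female vehicle 3, against 9.44 to 9.47 in the others, and Gatm was at 8.27 in the same library, against 8.02 to 8.03. Ldhb in vehicle males was at 8.55 in male vehicle 4, against 8.49 to 8.50 in the others. Female vehicle 3 is a library whose Xist level stood apart.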

How the results depend on the processing

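No paired analysis was possible because the titles give every sample the same replicate number (rep1), and the numbers of the columns name libraries without tying them to a sample. The number of the 10 genes called in females was 7 (47.1% of all genes). It was 0 with the housekeeping component as a covariate (0.00%), 4 in a fit of each sex alone (28.5%) and 10 after centring on housekeeping genes (50.2%). When 1 library was left out it ranged from 4 (without female DHT 1 or female DHT 2, 26.3% and 28.3% of all genes) to 8 (without female DHT 3 or female vehicle 3, 53.2% and 48.5%). In males it was 2 (22.8% of all genes), but 4 with array weights (36.3%), and stayed at 2 whichever library was left out (7.20% to 28.9% of all genes). For the interaction it was 1, but 0 with quantile normalization (7 at an unadjusted p under 0.05), 0 with either covariate, 0 without both female vehicle 3 and male DHT 3, 2 after centring on housekeeping genes and 6 with array weights, and it ranged from 0 to 7 when 1 library was left out, with 7 without female DHT 3. For vehicle females against vehicle males it was 2 (12.7% of all genes), but 5 with the housekeeping component (19.7%) and 4 with array weights (32.9%). It ranged from 2 to 3 when 1 library was left out (4.13% to 16.7% of all genes). Voom, the pseudocounts, the filter and the fit without a trend left all 4 counts within 1.5 times. Over all genes, the female calls numbered 7871 and ranged from 4385 to 8879 with 1 library left out, and the male calls numbered 3806 and ranged from 1202 (without male DHT 3) to 4825.

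Signs turned in these cases, none of them called after the turn. With the housekeeping component as a covariate, the log2 fold changes in females were 0.034 for Hk2, -0.018 for Ldhb, 0.20 for Slc16a1, -0.32 for Slc16a7 and -0.19 for Gatm, those in males 0.55 for Hk2, 0.074 for Pfkfb3, 0.45 for Ldha and 1.07 for Slc16a3, and the vehicle difference of Hk2 was 0.51. With quantile normalization, Hk1 in females was -0.016, the interaction of Slc16a7 0.030, the vehicle difference of Pfkfb3 -0.0029 and the log2 ratio of Ckb to Gatm in females -0.035. After centring on housekeeping genes, Slc16a1 in males was -0.027, the interactions of Hk1 and Slc16a7 were 0.13 each, and the vehicle differences were -0.035 for Hk1 and -0.062 for Pfkfb3. With the missing direction as a covariate Slc16a1 in males was -0.056. With array weights the interaction of Slc16a7 was 0.058 and the vehicle difference of Hk2 0.097. Without both female vehicle 3 and male DHT 3, Slc16a3 in males was 0.073, the interaction of Slc16a7 0.25 and the vehicle difference of Hk2 0.19. With 1 library left out, the range was -0.00073 to 0.099 for Slc16a1 and -0.32 to 0.073 for Slc16a3 in males, -0.17 to 0.13 for the interaction of Slc16a7, -0.097 to 0.19 for the vehicle difference of Hk2, -0.021 to 0.075 for that of Pfkfb3, and -0.16 to 0.12 for the log2 ratio of Ldha to Ldhb in males. The cause was not tested. With 1 library left out, an exact test of a ratio has 15 or 20 splits and cannot pass after adjustment.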
